A study of Danio rerio with 6 samples.

Results

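The response of the male zebrafish liver to nonylphenol was set against its response to estradiol over 2044 genes of the 31953 gene IDs measured. A gene was taken if its mean normalised read count was 20 or more in both of the authors' deposited tables, one of which compares estradiol with control and the other nonylphenol with control. The quantity described is the log2 fold change for nonylphenol minus that for estradiol. A positive value thus means a higher fold change for nonylphenol. Both fold changes come from the authors' fit, so the difference need not equal the log2 ratio of reads between the exposures. For fabp2 the difference was 2.85, while the log2 ratio of mean normalised reads, nonylphenol over estradiol, was -1.17. A minimum mean of 20 was reached by 2234 genes in the estradiol table and 3555 in the nonylphenol table, of which 190 and 1511 reached it in that table alone. Just inside the limit were srebf2 (lower mean 20.007, difference -0.38) and znf330 (20.026, difference -0.87), and just outside it were stxbp3 (19.997, difference 1.44) and kmt2ca (19.983, difference 0.32).

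17β-estradiol (E2) is the main natural estrogen. It acts by binding nuclear estrogen receptors, which then drive transcription of target genes, and in the liver of egg-laying vertebrates its best known targets are the vitellogenins, the yolk precursor proteins that females secrete into the blood. Nonylphenol (NP) is an alkylphenol released when surfactants break down, and it can bind estrogen receptors as a weak agonist. The liver also stores and makes glucose, breaks down amino acids, and secretes most lipoproteins, clotting factors and complement of the plasma.

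Male zebrafish (Danio rerio) were kept for 3 weeks in flow-through water with the ethanol vehicle alone (control), with 1000 nM E2 or with 100 nM NP, and liver RNA was sequenced from 2 libraries per group. Ethanol was the solvent of both compounds. Each group was 1 tank of 80 L with 40 fish, so treatment cannot be told apart from tank, and since the concentrations differ, compound and concentration cannot be told apart either. Whether a library came from 1 fish or several is not given in the labels, so a p-value reflects the spread among these libraries alone, which can be technical. Both comparisons use the same 2 control libraries.

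Depth differed widely. Whole reads per library were recovered from the deposited means for 1909 of the 2044 genes (93.4%). Where the means alone left several solutions, the direction of the deposited fold changes was used to choose among them. Over all recovered genes the libraries held 590655 and 373558 reads in control, 305681 and 26095 in E2, and 405275 and 406767 in NP. Within a group, "deeper" and "shallower" name the library with the larger and the smaller size factor, because a recovered library cannot be tied to a named sample. Over the 1909 genes, the paired libraries of a group differed by a median fold of 4.04 in E2, 1.80 in control and 1.33 in NP, and the authors' standard errors had a median of 1.17 for E2 and 0.751 for NP on the log2 scale. Values per library below are normalised reads, the recovered reads divided by the size factors, always with the deeper library first. These are liver homogenates, in which fewer cells of a type and less RNA per cell cannot be told apart.

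Over the 2044 genes the difference had a median of 0.37, with 5% of genes below -2.33 and 5% above 3.77, and it ran from -5.07 to 8.87. A difference beyond 1 in size on the log2 scale was positive for 764 genes and negative for 438. The median standard error of the difference was 1.41. A gene was called when the Benjamini-Hochberg adjusted p of a two-sided z test of the difference, taken over all 2044 genes, was under 0.05, and 32 genes (1.57%) were called. Of these, 27 (1.32%) were higher in NP and 5 (0.245%) were higher in E2. Among the 2044 genes, 23 rose and 105 fell for E2 at an adjusted p under 0.05 in the authors' deposited table. Outside them, 45 rose and 14 fell. For NP, 32 rose and 61 fell among the 2044, and 54 rose and 53 fell outside them. Genes outside had no test of the difference, so the split of 27 and 5 covers the 2044 alone. The smallest called difference was 4.38 in size, and 284 genes had an unadjusted p under 0.05 (224 higher in NP and 60 higher in E2). With the median difference of 0.37 subtracted from every gene, 19 genes were called, 14 higher in NP and 5 higher in E2.

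**Figure D1:**
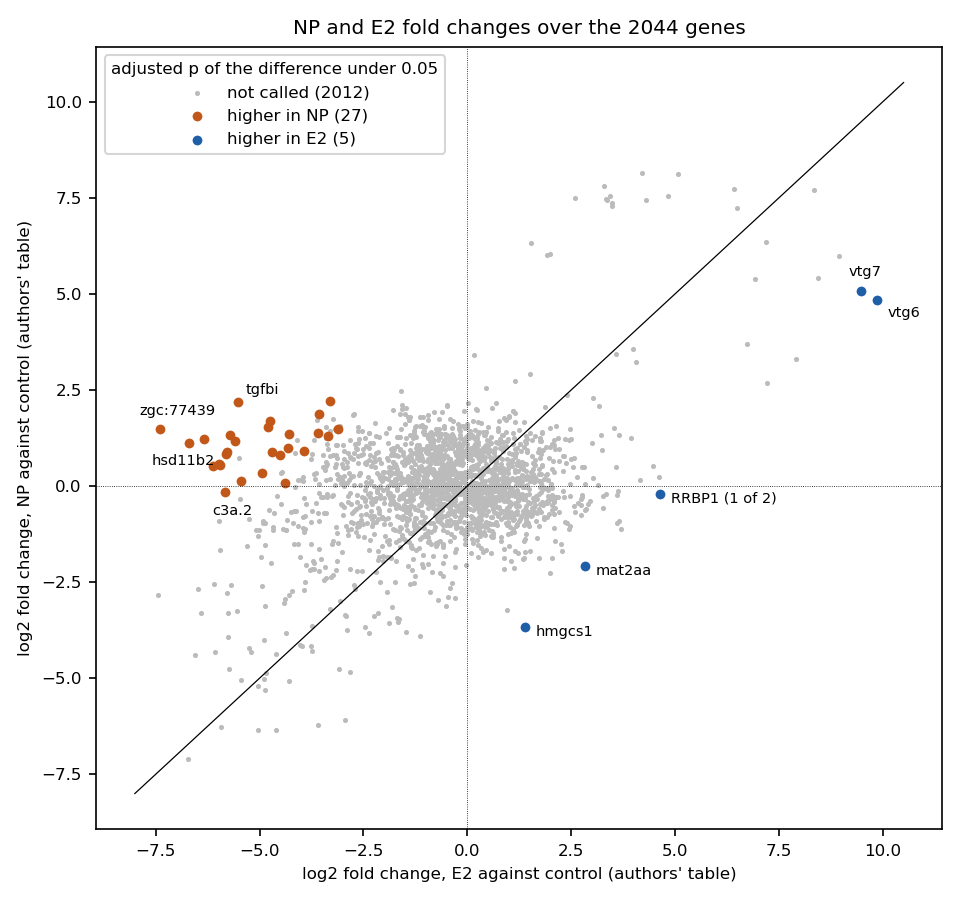
Log2 fold change against control in the authors' deposited tables, E2 on the horizontal and NP on the vertical axis, for each of the 2044 genes as 1 point; the solid line marks equal fold changes and dotted lines mark 0. The 27 genes called higher in NP lie between -7.39 and -3.12 for E2 and between -0.15 and 2.22 for NP, while the 5 called higher in E2 lie below the line.

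The 27 genes higher in NP were mostly genes that fell under E2 and did not pass under NP. In the authors' deposited table for E2, 25 of the 27 fell, against 5.14% of all 2044 genes, and their median log2 fold change was -4.93. In the authors' deposited table for NP, none of the 27 fell, 1 rose (tgfbi), and the median was 1.13, while 2.98% of the 2044 genes fell and 1.57% rose. For all 27 genes the E2 fold change was the larger of the pair in size. The difference was itself built from these values, so these counts describe the called genes and are no further support for them. Reads were recovered for 24 of the 27, and in all 24 both NP libraries lay above both E2 libraries, an order that 39.2% of the 1909 recovered genes also had. Where the direction of the fold changes served to solve the reads, this order is in part set by it.

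The E2 libraries held few or no reads of these genes. Of the 24 genes with recovered reads, 6 had none in either E2 library, 7 had 1 to 3 in both together, and 14 had none in the shallower E2 library. In each of these genes the fall under E2 made up the larger part of the difference. Few E2 reads therefore follow in part from how the genes were called. The share of all recovered genes with so few E2 reads is not given here, so these counts are no separate result. The log2 ratio of NP to E2 group means ran from 4.78 to 9.01 among the 18 genes with E2 reads. With the 6 genes without E2 reads set at the bound given by 3 reads over the group, the median over the 24 was 6.22. Folds given below as "at least" use this bound, which covers counting error in E2 only and no spread between libraries.

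**Figure D2:**
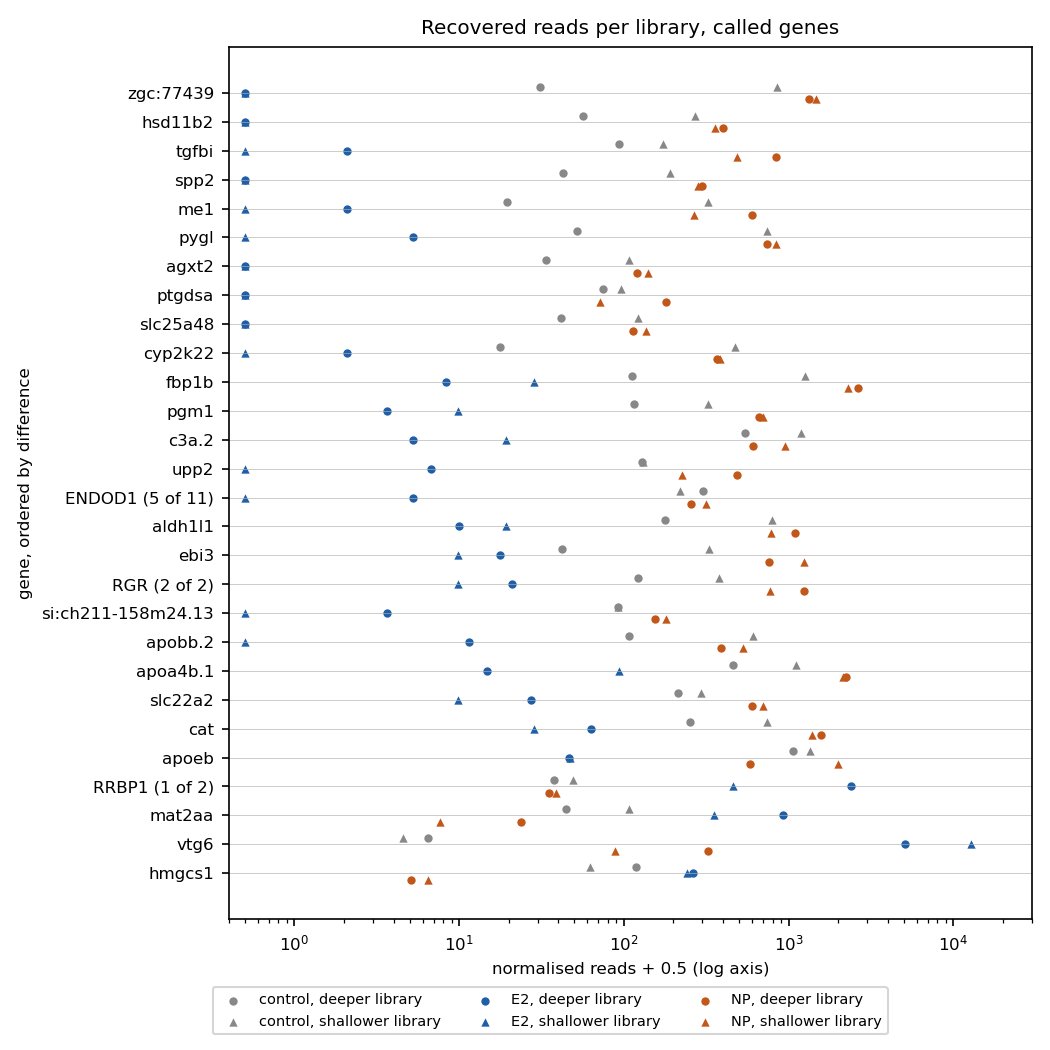
Normalised reads plus 0.5 (log axis) in each of the 6 libraries for the 28 called genes with recovered reads, ordered by the difference; colour gives the group, circles the deeper and triangles the shallower library. In the 24 upper genes both NP libraries lie above both E2 libraries, and in the lowest 4 both E2 libraries lie above both NP libraries.

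The list of glycolysis, gluconeogenesis and glycogen genes held 3 called genes, all higher in NP. pygl, the liver glycogen phosphorylase that releases glucose units from glycogen, stood at 51.4 and 741 normalised reads in control, 4.72 and 0 in E2, and 739 and 834 in NP. pgm1, the phosphoglucomutase that links glycogen to glucose 6-phosphate, stood at 114 and 323 in control, 3.15 and 9.31 in E2, and 662 and 694 in NP. fbp1b, a fructose-bisphosphatase of gluconeogenesis, stood at 110.8 and 1251 in control, 7.87 and 27.9 in E2, and 2654 and 2284 in NP. In all 3 genes the E2 libraries lay below both controls and both NP libraries, and the control libraries lay far apart for pygl and fbp1b.

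The NP minus E2 difference was 6.68 ± 1.69 (SE; adjusted p = 0.0164) for pygl, 6.32 ± 1.45 (adjusted p = 0.00709) for pgm1 and 6.42 ± 1.55 (adjusted p = 0.00976) for fbp1b. E2 held 3 reads of pygl and 3 of pgm1 in all. The ratio of reads per unit of size factor, NP over E2, was 194.5 for pygl (95% exact binomial interval 66.4 to 944.2) and 168 for pgm1 (57.3 to 815), intervals that cover counting error only. In the authors' deposited table for E2 the log2 fold changes of pygl, pgm1 and fbp1b were -5.79, -4.79 and -4.74, all falls, and in that for NP the values of 0.89, 1.53 and 1.68 did not pass. ldhbb, a lactate dehydrogenase without recovered reads, was also called, with a difference of 5.29 ± 1.52 (adjusted p = 0.0352). It is not on the list of 21 genes counted next. Of 21 measured genes of glycolysis, gluconeogenesis and glycogen 3 were higher in NP, beside 1.32% of all 2044 genes, and none in E2. Their median difference was 2.28, against 0.37 over all genes.

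Enzymes of one-carbon and amino acid metabolism were called in both directions. aldh1l1, which oxidises formyl-tetrahydrofolate, stood at 176 and 791 normalised reads in control, 9.44 and 18.6 in E2, and 1098 and 784 in NP. agxt2, a mitochondrial aminotransferase, stood at 33 and 106 in control, 0 and 0 in E2, and 118.9 and 140 in NP, at least 32.0-fold higher in NP than in E2. The NP libraries overlapped the controls for aldh1l1 and lay above both for agxt2, and in both genes E2 was lowest. The differences were 5.58 ± 1.42 (adjusted p = 0.0164) for aldh1l1 and 6.63 ± 1.87 (adjusted p = 0.032) for agxt2. bhmt, the betaine-homocysteine methyltransferase that regenerates methionine, differed by 4.85 ± 1.41 (adjusted p = 0.0395), and its reads were not recovered.

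In the list of 13 one-carbon and methionine cycle genes, aldh1l1 and bhmt were thus higher in NP, while mat2aa, which makes S-adenosylmethionine from methionine, was higher in E2. Of all 2044 genes, 1.32% were called higher in NP and 0.245% higher in E2. mat2aa stood at 44.2 and 107 normalised reads in control, 921 and 354 in E2, and 23.1 and 7.14 in NP. All 3 groups were separate for this gene, with E2 highest and NP lowest. Its difference was -4.93 ± 1.37 (adjusted p = 0.0309), although neither the value of 2.84 for E2 (adjusted p = 0.0913) nor the value of -2.09 for NP (adjusted p = 0.269) passed in the authors' deposited tables. The list had a median of 1.88. In the list of 22 genes of amino acid breakdown and the urea cycle, which leaves out agxt2, no gene was called. The median of that list was 3.13. The smallest p-values there belonged to shmt1, a serine hydroxymethyltransferase (4.73 ± 1.47, adjusted p = 0.0722), and kmo, the kynurenine monooxygenase of tryptophan breakdown (5.02 ± 1.58, adjusted p = 0.0737).

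Among the apolipoprotein genes 3 were called, all higher in NP. apoeb, an apolipoprotein E, stood at 1063 and 1346 normalised reads in control, 45.7 and 46.6 in E2, and 580 and 1982 in NP. apobb.2, an apolipoprotein B, stood at 107 and 604 in control, 11 and 0 in E2, and 389 and 526 in NP. apoa4b.1, an apolipoprotein A-IV gene also counted here as an intestinal marker, stood at 459 and 1115 in control, 14.2 and 93.1 in E2, and 2227 and 2150 in NP. E2 lay below control and NP in each, and NP lay above both controls only for apoa4b.1.

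The differences were 4.47 ± 1.24 for apoeb (adjusted p = 0.0309), 5.27 ± 1.54 for apobb.2 (adjusted p = 0.0395) and 4.98 ± 1.36 for apoa4b.1 (adjusted p = 0.0309). For apoa4b.1 the log2 ratio of group means changed from 5.34 to 7.22 without the shallower E2 library. Of 19 apolipoprotein and lipid transport genes these 3 were called, beside 1.32% of all 2044 genes called higher in NP, and the median difference was 2.14. me1, the cytosolic malic enzyme that supplies NADPH for fatty acid synthesis, stood at 19.1 and 325 normalised reads in control, 1.57 and 0 in E2, and 599 and 265 in NP, with a difference of 6.78 ± 1.80 (adjusted p = 0.0231). It was the 1 called gene among 13 enzymes of fatty acid and triglyceride synthesis, whose median was 1.65. fasn, the fatty acid synthase, had a difference of 3.12 ± 1.54 that did not pass (adjusted p = 0.33), and elovl6, a fatty acid elongase, had 4.30 ± 1.37 (adjusted p = 0.0822).

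Enzymes of steroid and foreign compound metabolism were represented by 2 genes. hsd11b2, the 11β-hydroxysteroid dehydrogenase that converts cortisol to cortisone and in fish also makes 11-keto androgens, stood at 56.0 and 269 normalised reads in control, 0 and 0 in E2, and 402 and 359 in NP. It was at least 94.3-fold higher in NP than in E2, with a difference of 7.83 ± 1.83 (adjusted p = 0.00744). cyp2k22, a cytochrome P450, stood at 17.1 and 469 in control, 1.57 and 0 in E2, and 369 and 383 in NP (difference 6.50 ± 1.83, adjusted p = 0.0319). The E2 libraries of both genes lay below every other library, while the controls of cyp2k22 spanned the NP values. hsd11b2 was the 1 called gene of 5 hydroxysteroid dehydrogenases, and cyp2k22 the 1 called gene of 13 cytochrome P450 genes, whose median difference was 2.6. Of all 2044 genes, 1.32% were called higher in NP. cyp1a, the classical target of the aryl hydrocarbon receptor, did not pass (3.74 ± 1.70, adjusted p = 0.277).

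Carriers and mitochondrial proteins were also among the called genes. ucp1, a mitochondrial uncoupling protein, had the smallest adjusted p of all, with a difference of 7.04 ± 1.36 (adjusted p = 5.09e-04); the authors' deposited tables gave -5.71 ± 1.14 for E2 and 1.32 ± 0.75 for NP, and its reads were not recovered. slc25a48, a member of the mitochondrial carrier family, stood at 40.9 and 121 normalised reads in control, 0 and 0 in E2, and 113 and 136 in NP, at least 30.7-fold higher in NP. slc22a2, an organic cation transporter of the plasma membrane, stood at 212 and 292 in control, 26.8 and 9.31 in E2, and 597 and 702 in NP. NP lay above both controls for slc22a2 and overlapped them for slc25a48. cat, the catalase that breaks down hydrogen peroxide, had a difference of 4.60 ± 1.32 (adjusted p = 0.0352), with 251 and 744 normalised reads in control, 63.0 and 27.9 in E2, and 1569 and 1393 in NP. upp2, a uridine phosphorylase, differed by 5.64 ± 1.46 (adjusted p = 0.017).

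The called genes also held tgfbi, c3a.2, spp2 and ptgdsa, which encode secreted proteins. tgfbi, an extracellular matrix protein induced by TGF-β, stood at 92.3 and 172 normalised reads in control, 1.57 and 0 in E2, and 839 and 485 in NP. The 3 groups did not overlap, with NP highest and E2 lowest. It was the 1 gene of the 2044 that passed in both of the authors' deposited tables with opposite signs, at -5.52 ± 1.45 for E2 (adjusted p = 0.00728) and 2.19 ± 0.68 for NP (adjusted p = 0.0475). The difference was 7.71 ± 1.6 (adjusted p = 0.0015). E2 held 1 read of tgfbi in all. The ratio of reads per unit of size factor, NP over E2, was 493.8 (95% exact binomial interval 88.4 to 1.95e+04), an interval that covers counting error only.

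c3a.2, a copy of complement component C3, stood at 544 and 1184 normalised reads in control, 4.72 and 18.6 in E2, and 604 and 944 in NP. NP lay within the range of the controls and E2 far below it. The authors' deposited tables gave -5.83 ± 1.18 for E2 (adjusted p = 1.23e-04) and -0.15 ± 0.68 for NP (adjusted p = 0.999), and the difference was 5.68 ± 1.36 (adjusted p = 0.00976). c3a.2 was the 1 called gene of 27 complement genes, beside 1.32% of all 2044 genes called higher in NP. Of the 27, 26 had a positive difference, against 57.7% of all 2044 genes, and the median of the 27 was 2.38. c9, the pore-forming component, had a difference of 3.47 ± 1.17 (adjusted p = 0.102). spp2, a secreted phosphoprotein, stood at 42.2 and 189 in control, 0 and 0 in E2, and 299 and 279 in NP, at least 71.6-fold higher in NP (difference 7.55 ± 1.85, adjusted p = 0.0111). ptgdsa, a prostaglandin D2 synthase of the lipocalin family, stood at 74.5 and 96.2 in control, 0 and 0 in E2, and 180 and 71.4 in NP, at least 31.3-fold higher in NP (difference 6.63 ± 1.83, adjusted p = 0.0309).

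Among the others, ebi3, a subunit of the heterodimeric cytokines interleukin 27 and 35 in mammals, differed by 5.52 ± 1.52 (adjusted p = 0.0309), with 41.5 and 329 normalised reads in control, 17.3 and 9.31 in E2, and 760 and 1243 in NP. It is 1 of the 2 genes of the 27 that did not pass for E2 in the authors' deposited table (-3.30, adjusted p = 0.102), the other being cat (-3.12, adjusted p = 0.0698). RGR (2 of 2), named rgrb in current tables and related to an opsin of the retinal pigment epithelium, differed by 5.45 ± 1.38 (adjusted p = 0.0164), and ENDOD1 (5 of 11), of an endonuclease domain family, by 5.59 ± 1.44 (adjusted p = 0.017). The largest difference of all belonged to zgc:77439, for which the files give no informative name (8.87 ± 1.90, adjusted p = 0.00197). It stood at 30.3 and 845 normalised reads in control, 0 and 0 in E2, and 1321 and 1473 in NP, at least 346-fold higher in NP. si:ch211-158m24.13 differed by 5.31 ± 1.53 (adjusted p = 0.0352).

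Of the 5 genes higher in E2 (0.245% of the 2044), 2 were vitellogenins. vtg6 stood at 5.93 and 4.05 normalised reads in control, 5096 and 12721 in E2, and 326 and 88.0 in NP. The 3 groups did not overlap, and NP lay between control and E2. The difference was -5.03 ± 1.38 (adjusted p = 0.0309), made of rises of 9.87 under E2 and 4.84 under NP in the authors' deposited tables. vtg7, whose reads were not recovered, differed by -4.38 ± 1.25 (adjusted p = 0.0352), with rises of 9.47 and 5.09 in the authors' deposited tables. Reads shared between these similar genes were not examined, so their division among the vitellogenins is uncertain.

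The other 5 vitellogenins did not pass. vtg3 (-3.03 ± 1.41, adjusted p = 0.292), vtg4 (-2.95 ± 1.32, adjusted p = 0.266) and vtg5 (-3.05 ± 1.39, adjusted p = 0.278) had lower values in NP. vtg1 stood at 606 and 1453 normalised reads in E2 and 2816 and 769 in NP, a difference of 0.73 ± 1.33 (adjusted p = 0.857). vtg2 stood at 1133 and 5020 in E2 and 3066 and 687 in NP, a difference of -0.66 ± 1.39 (adjusted p = 0.87). For vtg1 and vtg2 the groups overlapped. The 95% interval of the difference ran from -1.88 to 3.34 for vtg1 and from -3.38 to 2.07 for vtg2, so differences within these bounds were not excluded. These bounds are no limit of detection, since the smallest difference called for any gene was 4.38 in size. The median over the 7 vitellogenins was -3.03. Over the 5 with recovered reads the median log2 ratio was -3.37, the value of vtg5, and it became -1.57 without the shallower E2 library. nots, nothepsin, an aspartic protease of the female zebrafish liver, stood at 581 and 1090 in E2 and 591 and 262 in NP, a difference of -0.84 ± 1.46 (adjusted p = 0.857; 95% interval -3.70 to 2.03).

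The estrogen receptors did not reach the minimum mean in at least 1 table and have no test of the difference. esr1, the receptor that estrogen raises in fish liver, stood at 1.98 and 1.01 normalised reads in control, 433 and 65.2 in E2, and 15 and 0 in NP. Both E2 libraries lay above both NP libraries. esr2a stood at 25.2 and 0 in E2 and 11.5 and 17.8 in NP, and esr2b at 36.2 and 18.6 in E2 and 113 and 8.32 in NP, with overlap in both. si:dkey-4c23.3, the gene of vtg8, stood at 12.6 and 102 in E2 and at 0 in both NP and both control libraries.

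**Figure D3:**
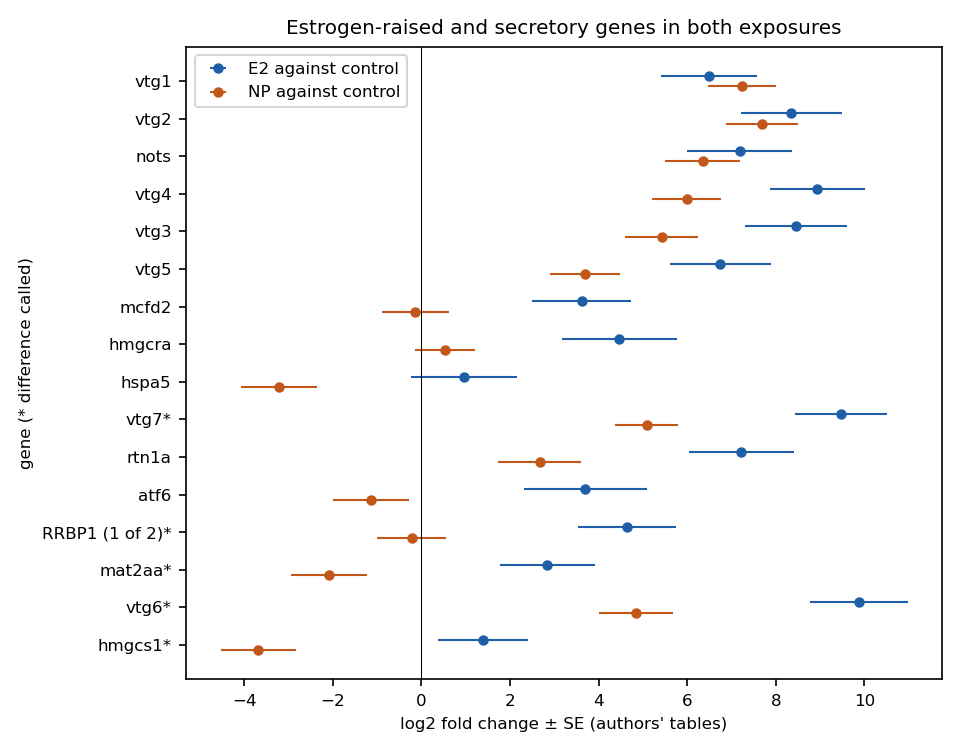
Log2 fold change against control with the authors' SE (bars), from the authors' deposited tables, for E2 and NP in the 7 vitellogenins, nothepsin and genes of cholesterol synthesis, methionine use and secretion, ordered by the difference; an asterisk marks a called difference. vtg1, vtg2 and nots have differences of 0.73, -0.66 and -0.84, while vtg6 and vtg7 have differences of -5.03 and -4.38.

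hmgcs1, the enzyme that makes hydroxymethylglutaryl-CoA at the start of cholesterol synthesis, had the most negative difference of all, -5.07 ± 1.33 (adjusted p = 0.0194). It stood at 118 and 61.8 normalised reads in control, 263 and 242 in E2, and 4.62 and 5.95 in NP. The 3 groups did not overlap. It is the 1 called gene for which the NP part was the larger, as it fell by 3.68 for NP (adjusted p = 0.00127) and stood at 1.39 for E2 (adjusted p = 0.508) in the authors' deposited tables. The list of 8 cholesterol synthesis enzymes had a median of -1.46. hmgcs1 was its 1 called gene, beside 0.245% of all 2044 genes called higher in E2. idi1, which isomerises isopentenyl diphosphate, stood at 556 and 224 in E2 and 35.8 and 34.5 in NP (difference -3.23 ± 1.3, adjusted p = 0.188). hmgcra, the rate-limiting reductase, stood at 7057 and 214 in E2 and 160 and 158 in NP (difference -3.95 ± 1.47, adjusted p = 0.14), and its log2 ratio of -4.51 became -0.43 without the deeper E2 library.

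RRBP1 (1 of 2), a ribosome-binding protein of the rough endoplasmic reticulum, was the remaining gene higher in E2. It stood at 36.9 and 48.6 normalised reads in control, 2399 and 456 in E2, and 34.6 and 38.1 in NP. NP overlapped the controls, and both E2 libraries lay above all others. The difference was -4.86 ± 1.36 (adjusted p = 0.0316), and the log2 ratio of -5.28 became -3.63 without the deeper E2 library. For the 4 genes higher in E2 with recovered reads, both E2 libraries lay above both NP libraries, as they did in 15.7% of the 1909 recovered genes.

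Other genes of the secretory pathway had negative differences that did not pass. Among 46 genes of the translocon, glycosylation and vesicle coats none was called, the median was -1.15, and 7 had a positive difference. Of all 2044 genes, 57.7% had a positive difference. rtn1a, a reticulon that shapes the endoplasmic reticulum, stood at 2130 and 298 normalised reads in E2 and 23.1 and 54.7 in NP (difference -4.55 ± 1.52, adjusted p = 0.102), and its log2 ratio of -4.95 became -2.92 without the deeper E2 library. mcfd2, part of a cargo receptor, stood at 1602 and 354 in E2 and 64.7 and 51.1 in NP (-3.75 ± 1.35, adjusted p = 0.128), and its log2 ratio of -4.07 became -2.60 without the deeper E2 library. Both E2 libraries lay above both NP libraries in these genes. Among 25 endoplasmic reticulum chaperone and unfolded protein response genes none was called, and the median was -1.29. hspa5, the main chaperone of that compartment, stood at 839 and 89.1 in control, 606 and 1322 in E2, and 36.9 and 41.6 in NP (-4.18 ± 1.46, adjusted p = 0.12). atf6, a sensor of misfolded proteins, stood at 1489 and 18.6 in E2 and 18.5 and 14.3 in NP, and its log2 ratio of -5.48 became -0.18 without the deeper E2 library.

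Of 40 gene lists 36 had a member among the 2044 genes and 10 a called member. The median over all 2044 genes was 0.37, and 1179 of them (57.7%) had a positive difference. Coagulation factors and serpins had a median of 2.48 over 24 genes, all with a positive difference and none called; f9a, coagulation factor IX, came closest (4.66 ± 1.44, adjusted p = 0.0722). Acute phase proteins had a median of 1.63 over 27 genes, none of them called. Cytosolic ribosomal proteins had a median of 1.09 over 84 genes, of which 77 were positive, and respiratory chain genes a median of 0.95 over 75 genes, of which 64 were positive, with none called in either. The medians of proteasome subunits (0.25), translation factors and tRNA synthetases (0.09) and metal handling genes (0.07) became negative once the median over all genes was subtracted. With the shallower E2 library left out, the median log2 ratio over the 1909 recovered genes of the 2044 was 0.15. With the deeper one left out it was 1.54, against 0.30 with both.

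**Figure D4:**
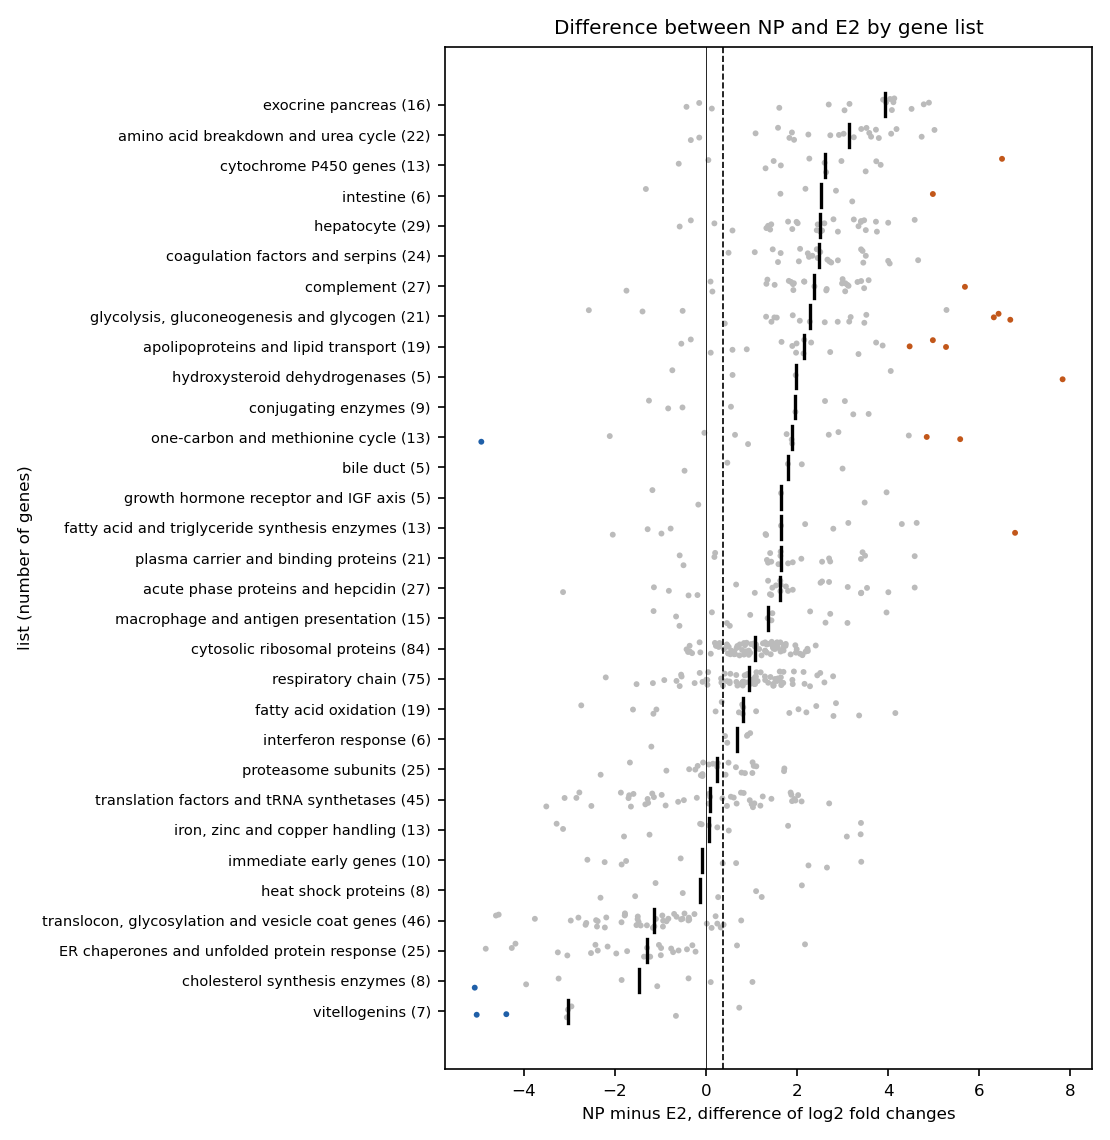
Difference between NP and E2 (log2) of each gene in the lists with 5 or more measured genes, ordered by the list median (bar); the dashed line is the median over all 2044 genes and coloured points are called genes. Medians run from -3.03 for vitellogenins to 3.92 for exocrine pancreas.

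Lists without a called gene still held genes with large values. Of 5 genes of the growth hormone and insulin-like growth factor axis, with a median of 1.65, 3 had a positive difference. The lowest value was -1.17. In the authors' deposited table for NP 2 of the 5 fell, beside 2.98% of all 2044 genes. igfbp2a, a binding protein of the growth factors, stood at 78.5 and 253 normalised reads in control, 12.6 and 9.31 in E2, and 232 and 244 in NP (3.96 ± 1.41, adjusted p = 0.128). igfals, the subunit that stabilises these complexes in plasma, stood at 84.4 and 209 in control, 12.6 and 18.6 in E2, and 199 and 221 in NP (3.48 ± 1.36, adjusted p = 0.172). In both genes E2 lay below the other groups and NP overlapped the controls. Among 21 plasma carriers the median was 1.64. Of these, sepp1b, named selenop2 in current tables, stood at 560 and 606 in control, 59.8 and 37.3 in E2, and 1170 and 178 in NP (3.49 ± 1.3, adjusted p = 0.14). Its log2 ratio of recovered means was 3.78, and 1.87 without the deeper NP library. Of 9 conjugating enzymes, with a median of 1.96, ugt1ab, a glucuronosyltransferase, stood at 11 and 37.3 in E2 and 242 and 464 in NP (3.57 ± 1.56, adjusted p = 0.248).

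slc31a1, the copper importer of the cell surface and 1 of 13 metal handling genes, had a negative difference. It stood at 383 and 307 normalised reads in control, 3501 and 1267 in E2, and 277 and 142 in NP (-3.28 ± 1.23, adjusted p = 0.144), so that E2 lay above all other libraries. eif4a1a, an RNA helicase of translation initiation, stood at 695 and 164 in control, 4943 and 736 in E2, and 255 and 140 in NP (-3.50 ± 1.42, adjusted p = 0.194). Its log2 ratio of recovered means was -3.84, and -1.89 without the deeper E2 library. The metal handling genes had a median of 0.07, beside 0.37 over all 2044 genes. The medians were 0.82 for 19 fatty acid oxidation genes, 0.68 for 6 interferon response genes, -0.12 for 8 heat shock proteins and -0.09 for 10 immediate early genes. Lists with at most 3 genes had medians of 0.54 for 3 circadian clock genes, -1.05 for 2 estrogen-responsive genes, -0.07 for 2 stellate, fibroblast and endothelial markers, -2.21 for 1 cell cycle gene and 0.99 for 1 erythrocyte marker. No zona pellucida gene was among the 2044.

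Marker genes of other cell types had different summed levels in the groups. Summed over 29 recovered IDs, exocrine pancreas markers stood at 442 and 1027 normalised reads in control, 617 and 3017 in E2, and 11045 and 32194 in NP. zgc:92590, an abundant exocrine pancreas marker, had no recovered reads and is missing from these sums. Of 38 such IDs, 16 were among the 2044 genes. Of these 16, 12 rose for NP and 3 for E2 in the authors' deposited tables, beside 1.57% and 1.13% of the 2044 genes. A gene low in control, such as zgc:112160 with 0.66 and 15.2 normalised reads there, reaches the minimum mean only through the exposed libraries. The count of rises therefore follows in part from the minimum mean and is no separate result. None of the 16 was called for the difference, and their median difference was 3.92. Over the 11 with recovered reads the median log2 ratio was 3.00, and it became 6.71 without the shallower E2 library and 1.90 without the shallower NP library. zgc:112160, named ctrb.3 in current tables, a chymotrypsinogen, stood at 20.5 and 112 in E2 and 978 and 4616 in NP (4.89 ± 1.67, adjusted p = 0.108). Intestinal markers, summed over 25 IDs, stood at 1212 and 3198 in control, 70.8 and 158 in E2, and 2822 and 2495 in NP. apoa4b.1 supplied 2227 of the 2822 in the deeper NP library. fabp2, the intestinal fatty acid binding protein, was at 0 in the deeper library of every group and at 343 in the shallower control, 9.31 in the shallower E2 and 3.57 in the shallower NP library.

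Of the hepatocyte markers, which check the tissue, 29 were among the 2044 genes, and 10 of these had recovered reads. Recovery was not tried for genes with the highest means, so abundant markers such as tfa and c9 are missing from the sums. All 12 recovered IDs of the list had reads in both exposures. Their sums were 1744 and 4381 normalised reads in control, 1083 and 2030 in E2, and 7086 and 8183 in NP, and the median difference of the 29 was 2.51, with none called. Macrophage and antigen presentation markers summed to 5753 and 2898 in control, 784 and 373 in E2, and 1397 and 1580 in NP. Bile duct markers summed to 2346 and 1935 in control, 508 and 363 in E2, and 1592 and 1438 in NP. Lymphocyte, endocrine pancreas and germ cell markers had no gene among the 2044. The part of these shifts in the genes called higher in NP was not tested.

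A direct test on the recovered reads, limma-voom with all 6 libraries, called none of the 1909 genes at an adjusted p under 0.05. The smallest adjusted p over 7183 fitted genes was 0.0903. At an unadjusted p under 0.05 there were 507 of the 1909, 390 (20.4%) higher in NP and 117 (6.13%) higher in E2. All 28 called genes with recovered reads were among them with the same direction, with adjusted p from 0.0903 to 0.196 for the 24 higher in NP and from 0.0903 to 0.108 for the 4 higher in E2. The reads come from the same libraries as the fold changes that chose these genes, so the shared direction is no further support. The 32 calls thus rest on the authors' fold changes and standard errors, and no gene passed on the reads of these 2 libraries per exposure in this fit.

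Genes that moved alike in both exposures are outside the contrast and are given for their values only. Of the 2044 genes, 42 passed with the same sign in both of the authors' deposited tables, 29 falling and 13 rising, and the tables share their controls. itln3, an intelectin that binds microbial sugars, had log2 fold changes of -4.85 under E2 and -4.86 under NP in the authors' deposited tables. eps8l3b, of the EPS8 family of actin regulators, stood at 169 and 16.2 normalised reads in control and at 0 in all 4 treated libraries. grn1, a granulin, fell for both compounds in the authors' deposited tables and stood at 1.57 and 0 in E2 and 18.5 and 27.4 in NP (difference 3.11 ± 1.57, adjusted p = 0.348).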

How the data were processed

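Per the submitters' processing notes, TopHat2, HTSeq, DESeq2 and GRCz10 were used. Their versions and settings are not given in the sources used here. The deposited data are 2 tables of the authors' own comparisons, per the file headers. In them the deposited signal is the mean normalised read count over 4 libraries, the deposited log2 fold changes and standard errors come from the authors' fit, the deposited score is their quotient, and the deposited p-values are two-sided with Benjamini-Hochberg adjustment. Repeated rows of an ID were identical and counted once.

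The difference NP minus E2 was divided by the root of the summed squared standard errors. The shared controls make the fold changes covary, which was ignored, so on this count alone the standard error is too large rather than too small. The normal reference of the z test takes no account of there being 2 libraries per group. Whether the test is cautious on balance was not tested. Of 18593 genes with reads, whole reads were solved for 18458 (99.3%) from the steps in both deposited means. Where the means alone gave several solutions, only those in the direction of both deposited fold changes were kept, and a lone remaining solution was taken. How many genes were solved in this way is not given here. For 49 genes the solution was ambiguous, and 86 genes with the highest means were not tried. Sums over recovered IDs leave these genes out. Among 1784 genes with both means altered on purpose, 3 were solvable. These were drawn at random from all 18458 solved genes, of which 1909 are among the 2044. The rate for the 1909 alone is not given here. The E2 table was placed on the scale of the NP table through the shared controls. Current names were found for 2000 of the 2044 genes. limma-voom (limma 3.58.1, R 4.3.3) was run on the 7183 genes with recovered reads and a minimum of 30 reads in total. The recovery, the z test and limma-voom were each run on simulated data, and the outcomes are not given here. Ratios of means used a pseudocount of 0.5 normalised reads.

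The members and all 40 gene lists were chosen with earlier results of these data known. Genes to describe were drawn from the 15 called genes with the largest difference in each direction with an informative symbol, genes past in both tables with opposite signs, up to 4 genes of a list with a call or 2 of a list of 5 or more without, vitellogenins, estrogen receptors and nothepsin, and the 5 smallest differences past in both tables. Not every gene that these criteria give is described, and that choice was made with their values known. zgc:77439, RGR (2 of 2), ebi3, slc22a2, cat, ldhbb and si:ch211-158m24.13 were added after their values were seen.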

Additional observations from a re-analysis of the deposited data

Results flagged for a closer look

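The 32 genes below had a fold change for NP that differed from that for E2 by the test of the difference itself (z test, Benjamini-Hochberg adjusted over 2044 genes). Of those higher in NP, the differences on the log2 scale were 8.87 for zgc:77439, 7.83 for hsd11b2, 7.71 for tgfbi, 7.55 for spp2, 7.04 for ucp1, 6.78 for me1, 6.68 for pygl, 6.63 for agxt2, 6.63 for ptgdsa, 6.56 for slc25a48, 6.50 for cyp2k22, 6.42 for fbp1b and 6.32 for pgm1. Smaller ones were 5.68 for c3a.2, 5.64 for upp2, 5.59 for ENDOD1 (5 of 11), 5.58 for aldh1l1, 5.52 for ebi3, 5.45 for RGR (2 of 2), 5.31 for si:ch211-158m24.13, 5.29 for ldhbb, 5.27 for apobb.2, 4.98 for apoa4b.1, 4.85 for bhmt, 4.65 for slc22a2, 4.60 for cat and 4.47 for apoeb. Higher in E2 were hmgcs1 with -5.07, vtg6 with -5.03, mat2aa with -4.93, RRBP1 (1 of 2) with -4.86 and vtg7 with -4.38.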

How the results depend on the processing

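The test of the difference called 32 genes. In place of these it called 28 at a minimum mean of 50 (21 of them among the 32), 31 at 10 (26 among the 32), 7 with no minimum (5), 19 after centring on the median (19) and 154 with the smaller variance removed for the shared controls (32). limma-voom on the recovered reads called 0, and 46 with only the 1909 genes fitted (6 of them among the 32). Its count was also 0 with the authors' size factors, with quality weights and on the 4 treated libraries, and 100 without the filter on low reads (28 among the 32). Leaving out 1 library gave 0 to 48 calls: 42 without the deeper and 48 without the shallower control library, and 0 without any 1 treated library. The cause was not tested. fabp2 (2.85) reversed to -1.17 as a log2 ratio of means and -1.02 with a pseudocount of 1, and in limma-voom to -0.26, -0.21 with the authors' size factors, -0.048 with quality weights and -0.63 without the filter. With 1 treated library left out, ranges were -3.37 to 2.19 for fabp2, -0.42 to 1.56 for vtg1, -1.55 to 1.52 for hsd17b10 (main value -0.74) and -2.16 to 0.73 for vtg2. For each of the 36 lists with a member, each of the 4 treated libraries was left out in turn. In 18 of these cases the list median of the log2 ratio differed from the main median by more than the list's median standard error, and in 126 it did not. That standard error is of single genes, so it is a wide limit for a median. No called gene reversed in the alternatives that keep all treated libraries. The shallower E2 library, with 26095 reads, limits what its zeros can show. No paired analysis was possible because the labels give no replicate numbers shared between groups.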
